A study of Homo sapiens with 13 samples.

Results

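Ribosome footprint (RF) and RNA levels of 10 Notch pathway genes were examined in MDA-MB-231 cells, an established human breast carcinoma line, after inhibition of eIF4A or of mTOR. The genes were the receptors NOTCH1, NOTCH2 and NOTCH3, the ligands JAG1 and JAG2, the receptor protease ADAM10, the nuclear factors RBPJ and MAML1, and the target genes HES1 and HEY1. They were listed by symbol, with earlier results of these data known, among 24875 symbols in the Silvestrol table, which held all 10, and 13121 symbols in the INK128 table, which held 8 (NOTCH3 and HEY1 were not among the symbols there). The study asked which mRNAs depend on eIF4A, the RNA helicase that unwinds the 5′ end of mRNAs for ribosome loading, and whether they are the same mRNAs that depend on mTOR.

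The Silvestrol experiment had RF libraries from untreated cells, from cells given the vehicle DMSO for 1 h or 2 h, and from cells given 25 nM Silvestrol, an eIF4A inhibitor, for 1 h or 2 h. The 2 h libraries were made from cells of passage 3 and again from passage 4, so each 2 h group had 2 libraries, and the untreated and 1 h groups had 1 each, from passage 3. The mRNA of passage 3 was sequenced once for DMSO and once for Silvestrol at 2 h. The INK128 experiment had 1 RF and 1 total RNA library from cells of passage 3 given DMSO for 2 h, and the same from cells given 200 nM INK128, a catalytic mTOR inhibitor, for 2 h. The same cell line was used throughout, so each difference is one between treatments of 1 line. For the passage 3 Silvestrol library at 2 h, 1 label field gives 1 h while its title and description give 2 h. The control mRNA library is DMSO by its title and untreated in its treatment field, and the title was followed in both cases. The RF libraries held 2652423 to 31188148 counted reads, with the fewest in passage 4 (6446356 with DMSO and 2652423 with Silvestrol), and the mRNA libraries held 50315607 and 24792922. Levels are relative to each library's total, so a change shared by all mRNAs cannot be seen, and in bulk samples fewer expressing cells and less RNA per cell cannot be told apart. The markers VIM, CD44, AXL, CAV1 and EGFR stood at 32.2 to 1461 RPKM in control mRNA. ESR1, PGR, CDH1 and KRT5 stood at 0 to 0.085 RPKM, but ERBB2, also listed as a gene that should be low, stood at 25.8 RPKM. The 5 markers of blood, endothelial, stromal and liver cells stood at 0 to 1.13 RPKM.

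Notch receptors are single-pass membrane proteins that respond to ligands of the Jagged and Delta families on a neighbouring cell. Ligand binding lets ADAM10 cut the receptor outside the membrane, γ-secretase then cuts within it, and the freed intracellular domain enters the nucleus. There it joins the DNA-binding protein RBPJ and a Mastermind coactivator such as MAML1, and genes of the HES and HEY repressor families are switched on. In breast carcinoma the pathway is known for its part in cell survival and self-renewal, and NOTCH1 has been described as an mRNA that depends on eIF4A.

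eIF4A is known to act on the 5′ UTR, so sequence from there is shown first as a description. Its relation to the measured changes was not tested. In the MANE Select transcripts of the GRCh37 annotation, the 5′ UTRs of NOTCH2, JAG2 and ADAM10 held the run CGGCGGCGGCGG, searched on the transcript strand with overlaps counted. NOTCH2 held 3 overlapping matches, and JAG2 and ADAM10 held 1 each. Of the 9061 expressed genes with an annotated 5′ UTR, 4.71% held the run. The matches are in capitals below, each within the first exon and upstream of the start codon, on the minus strand.
NOTCH2, chr1:120612038-120612067: ctgcccaggCGGCGGCGGCGGCGGCGGagg
JAG2, chr14:105634775-105634804: gggcgcgggCGGCGGCGGCGGggccgggcg
ADAM10, chr15:59041740-59041769: gtgaggaggCGGCGGCGGCGGcagcggcag

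The start codons (capitals) and their flanks are given for NOTCH1 and NOTCH2, the expressed receptors, and for HES1, the target gene with the largest mRNA difference among the expressed members.
NOTCH1, chr9:139440224-139440250, minus strand: cggtggggaggcATGccgccgctcctg
NOTCH2, chr1:120612006-120612032, minus strand: gcgaccgagaagATGcccgccctgcgc
HES1, chr3:193854158-193854184, plus strand: aaaaaaaggaaaATGccagctgatata
Of the 7 expressed members, 6 (all but MAML1) had a purine 3 bases before the start codon, as 87.7% of 9056 expressed genes did. A G directly after the start codon was found in 3 of 7 (ADAM10, RBPJ and MAML1) and in 55.0% of genes. The 5′ UTR was 262 bases long and 82.8% G or C in NOTCH1, 256 bases and 69.9% in NOTCH2, and 233 bases and 39.1% in HES1. Over all expressed genes the median length was 134 bases and the median GC content 67.7%. NOTCH1 thus lay at the 95.2 percentile of GC content and HES1 at the 0.88 percentile. The predicted folding energy was -148.0 kcal/mol for NOTCH1, -118.6 for NOTCH2, -161.6 for MAML1, -183.9 for JAG1 and -82.6 for ADAM10. It was -51.5 kcal/mol for HES1, against a median of -52.9 over all genes. These totals are not scaled for length, and the 5′ UTRs of JAG1 and MAML1 were 469 and 291 bases long. Per base the energy was -0.39 kcal/mol for JAG1. It was -0.565 for NOTCH1, -0.463 for NOTCH2, -0.555 for MAML1, -0.477 for ADAM10 and -0.221 for HES1. RBPJ had an annotated 5′ UTR of only 15 bases, with no predicted fold.

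The members were translated over a wide range of levels, and 3 of them were hardly detected. Over all 7 RF libraries, treated ones included, NOTCH3 had 0 to 22 RF reads in a library (0 to 0.076 RPKM), HEY1 had 2 to 22 reads (0.32 to 0.85 RPKM) and JAG2 had 7 to 77 reads (0.26 to 0.57 RPKM). These 3 fell under the minimum (a mean of 1 RPKM for RFs and 0.3 RPKM for mRNA), so 7 of 10 members entered the tests. For NOTCH3 no RF difference between treatments was detectable beyond counting error at these read counts, while its mRNA had 71 reads with DMSO and 16 with Silvestrol (0.139 and 0.061 RPKM). For HEY1, Silvestrol and DMSO differed beyond counting error at 2 h in passage 3, with 10 reads for DMSO and 13 for Silvestrol (log2 ratio of RPKM 1.41, 95% counting interval 0.10 to 2.76), while in passage 4 it had 3 and 2 reads. The untreated library stood above the same DMSO library as well (22 against 10 reads, log2 ratio 1.19, interval 0.05 to 2.43). For JAG2 the 1 h log2 ratio was -0.84 (counting interval -1.49 to -0.22), and the 2 h ratios were -0.49 and -0.04, with intervals that include 0.

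Among the 7 expressed members, the receptors and JAG1 carried few footprints for their mRNA. TE, the RF level divided by the mRNA level (RPKM, DMSO 2 h, passage 3), was 0.22 for NOTCH1, 0.25 for NOTCH2 and 0.33 for JAG1, at the 3.2, 3.9 and 6.7 percentiles of 10509 genes. ADAM10 had a TE of 0.59 (14.7 percentile) and MAML1 of 1.23 (33.7 percentile). HES1 and RBPJ stood higher, at 2.95 (69.6 percentile) and 3.94 (80.2 percentile). With the passage 4 footprints over the same mRNA the values were 0.24, 0.41, 0.42, 1.38, 1.13, 3.13 and 4.86 for NOTCH1, NOTCH2, JAG1, ADAM10, MAML1, HES1 and RBPJ. The high and low ends of the order were thus occupied by the same genes, while ADAM10 and MAML1 changed places.

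**Figure D1:**
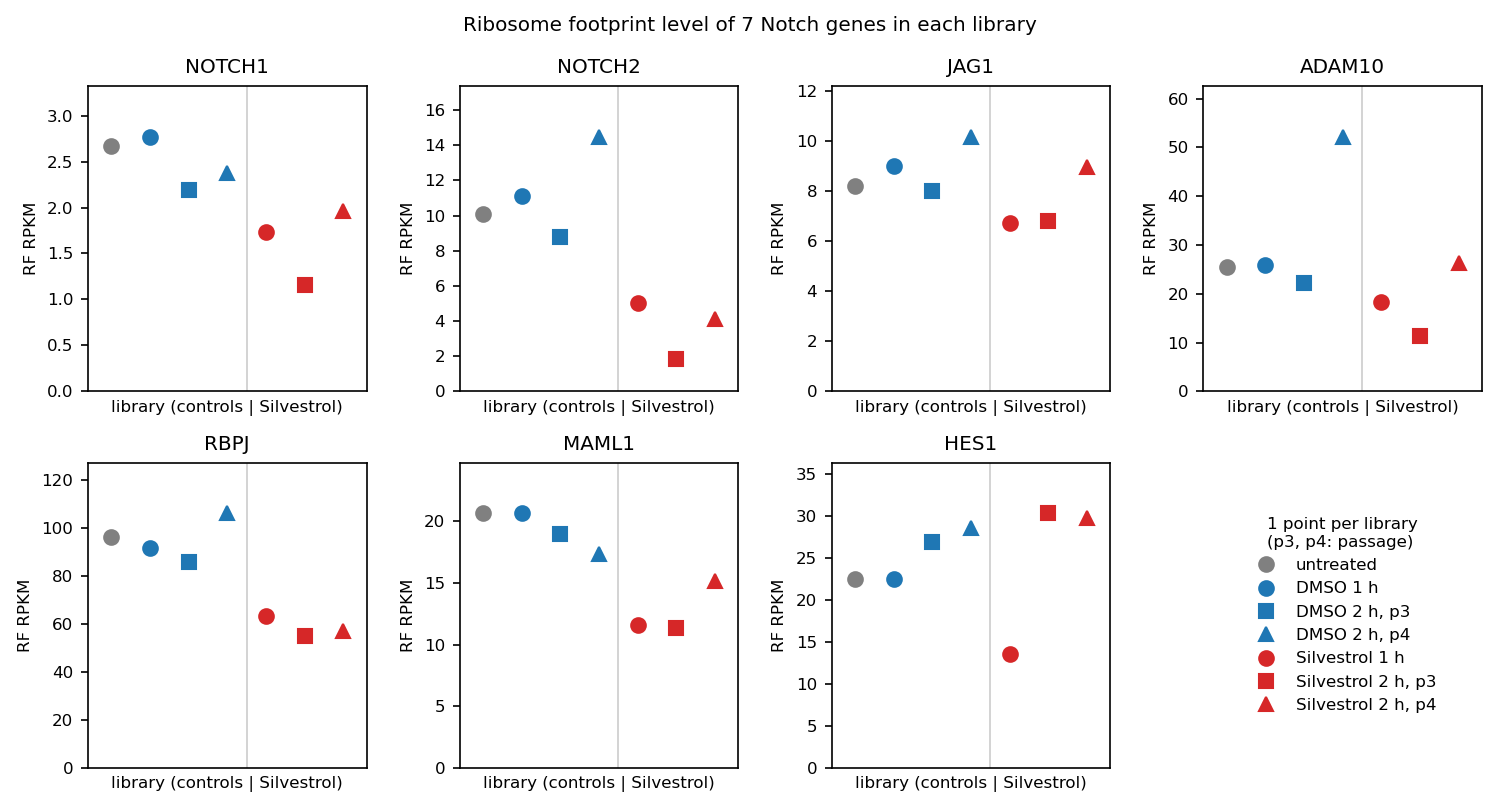
RF level (RPKM, linear axes from 0) of the 7 expressed members in each of 7 libraries, 1 point per library, with the 4 controls left and the 3 Silvestrol libraries right of the line. For NOTCH1, NOTCH2, RBPJ and MAML1 every Silvestrol point lies under every control point, as for 32.8% of all genes. HES1 is low at 1 h only.

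NOTCH2, one of the 2 receptors expressed here, carried far fewer footprints with Silvestrol than with DMSO, and its difference was the largest among the members. Its RF level was 10.1 RPKM in untreated cells, 11.1 with DMSO at 1 h, and 8.76 and 14.5 with DMSO at 2 h in passages 3 and 4. With Silvestrol it was 5.03 RPKM at 1 h, and 1.86 and 4.12 at 2 h in passages 3 and 4. All 3 Silvestrol values lay under all 4 control values, as they did for 32.8% of genes. The 2 h values lay under the 1 h value. The footprints were 4.71-fold lower at 2 h in passage 3 and 3.52-fold lower in passage 4, while NOTCH2 mRNA was 35.7 RPKM with DMSO and 31.3 with Silvestrol. In edgeR's quasi-likelihood test of the 2 h counts the log2 change was -1.84 (SE 0.43), with an adjusted p of 0.058 that missed the threshold of 0.05. With passage as a block the change was -1.88 (SE 0.14) with an adjusted edgeR p of 1.3e-38. The block leaves few degrees of freedom, so this p-value, like the other blocked ones, rests mostly on a spread shared across genes. Without the DMSO library of passage 3 the edgeR change was -2.18 with an adjusted p of 0.026, without that of passage 4 it was -1.47 (0.052), and without the Silvestrol library of passage 3 or of passage 4 it was -1.38 (0.254) or -2.44 (0.138). In each of these the lone library is assumed to vary like the other pair. NOTCH2 shares its first exons with the near-identical NOTCH2NL genes, so reads from there are uncertain, and positions with non-unique reads were left out of RPKM by the authors.

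NOTCH1, the other expressed receptor, had lower footprints with Silvestrol in every library, by an amount that differed between passages. Its RF level was 2.67 RPKM in untreated cells, 2.77 with DMSO at 1 h, and 2.19 and 2.37 with DMSO at 2 h. With Silvestrol it was 1.73 RPKM at 1 h, 1.15 at 2 h in passage 3 and 1.96 at 2 h in passage 4. The Silvestrol values lay under all controls, as for 32.8% of genes, but the passage 4 value came close to them. The log2 ratio was -0.92 in passage 3 (95% counting interval -1.19 to -0.66) and -0.28 in passage 4 (-0.76 to 0.18, from 152 and 53 reads). NOTCH1 mRNA stood at 10.0 RPKM with DMSO and 11.8 with Silvestrol. The edgeR change was -0.47 (SE 0.29, adjusted p 0.321), and with passage as a block it was -0.55 (SE 0.19, adjusted p 0.0097). Without the Silvestrol library of passage 3 or of passage 4 the unblocked change was -0.16 or -0.82. RAC1 and GATAD2A were among the 3 genes with the pattern nearest to NOTCH1. Their root mean square differences from it, over 6 log2 changes (RF at 1 h, RF at 2 h in each passage, mRNA, and RF and total RNA with INK128), were 0.11 and 0.13. The median over 5794 genes was 0.57.

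Footprints of JAG1, the expressed Jagged ligand, differed least among the members that were lower with Silvestrol. Its RF level was 8.22 RPKM in untreated cells, 8.99 with DMSO at 1 h, and 8.01 and 10.2 with DMSO at 2 h, against 6.75 with Silvestrol at 1 h and 6.80 and 8.95 at 2 h. The groups overlapped, since the Silvestrol library of passage 4 lay above 2 of the 4 controls. The edgeR change at 2 h was -0.09 (SE 0.20, adjusted p 0.794), and with the block it was -0.09 (SE 0.15, adjusted p 0.635).

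ADAM10, the protease that makes the first ligand-dependent cut, had RF ratios that were about equal in the 2 passages, from very different control levels. Its RF level was 25.5 RPKM in untreated cells, 25.8 with DMSO at 1 h, 22.1 with DMSO at 2 h in passage 3 and 52.1 in passage 4. With Silvestrol it was 18.2 RPKM at 1 h, and 11.4 and 26.3 at 2 h. The passage 4 DMSO library was 2.36-fold above that of passage 3, and the Silvestrol library of passage 4 lay above all controls of passage 3. Within passages the 2 h levels were 1.94-fold and 1.98-fold lower. The edgeR change was -0.88 (SE 0.52, adjusted p 0.309) without passage and -0.84 (SE 0.13, adjusted p 2.9e-10) with it as a block. The unblocked change ran from -1.52 without the Silvestrol library of passage 4 to -0.20 without the DMSO library of passage 4. ADAM10 mRNA was 37.7 RPKM with DMSO and 34.8 with Silvestrol.

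In the nuclear complex, footprints of RBPJ and of MAML1 were lower in all 3 Silvestrol libraries than in all 4 controls. The same held for 32.8% of all genes. RBPJ, which binds DNA at Notch target genes, ranged from 85.9 to 106.0 RPKM in the controls and from 54.8 to 63.1 RPKM with Silvestrol. Its mRNA was 21.8 RPKM with DMSO and 21.9 with Silvestrol. The edgeR change was -0.38 (SE 0.24, adjusted p 0.342), or -0.34 (SE 0.12, adjusted p 0.011) with the block. With 1 library left out the unblocked change ran from -0.63 (DMSO of passage 3) to -0.08 (DMSO of passage 4). The length over which RBPJ reads were counted, taken as reads over RPKM, relative to the DMSO library of passage 3, was 1.28 in the Silvestrol library of passage 3, and 1.21 with DMSO and 1.55 with Silvestrol in passage 4. With an offset for that length the edgeR change was -0.72 (adjusted p 0.051). MAML1, the Mastermind coactivator, ranged from 17.4 to 20.7 RPKM in the controls. With Silvestrol it was 11.6 RPKM at 1 h, 11.4 at 2 h in passage 3 and 15.1 at 2 h in passage 4. The edgeR change was -0.35 (SE 0.19, adjusted p 0.268), or -0.39 (SE 0.13, adjusted p 0.0085) with the block. Without the Silvestrol library of passage 3 or of passage 4 the unblocked change was -0.21 or -0.52.

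HES1, the repressor that is a standard readout of Notch activity and has a short-lived mRNA, was the member with the largest mRNA difference. Its mRNA was 9.13 RPKM with DMSO and 27.0 with Silvestrol, a 2.95-fold higher level in 1 library than in the other, at the 99.5 percentile of mRNA ratios. It was the only expressed member past 2-fold, where 4.70% of genes were at least 2-fold higher. The 95% counting interval of the log2 ratio of 1.56 was 1.44 to 1.69. Its RF level was 22.6 RPKM in untreated cells, 22.5 with DMSO at 1 h, and 26.9 and 28.6 with DMSO at 2 h. With Silvestrol it was 13.6 RPKM at 1 h, below all controls, and 30.3 and 29.8 at 2 h, above all controls. The edgeR RF change at 2 h was 0.25 (SE 0.17, adjusted p 0.360), or 0.26 (SE 0.16, adjusted p 0.146) with the block.

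**Figure D2:**
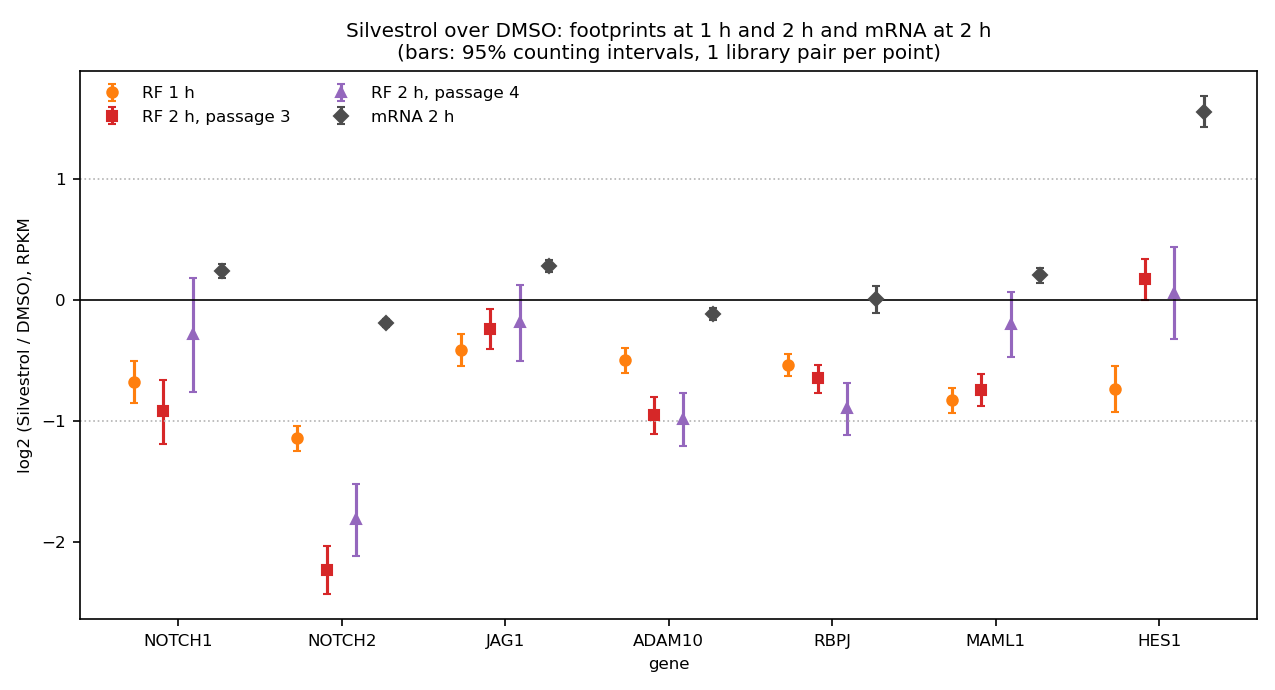
Log2 ratios of Silvestrol to DMSO (RPKM) for RFs at 1 h, RFs at 2 h in each passage and mRNA at 2 h, 1 pair of libraries per point, with 95% counting intervals as bars and dotted lines at 2-fold. NOTCH2 footprints lie lowest at 2 h (-2.23 and -1.81) and HES1 mRNA highest (1.56).

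Over the members, the edgeR test of RF counts at 2 h called 0 of 7 lower, where 7.56% of all 10509 genes were called lower and 2.17% higher. At an unadjusted p under 0.05 it was 1 member, NOTCH2, against 31.2% of genes. DESeq2 called NOTCH2 alone of the 7 (adjusted p 0.00018), where it called 11.4% of 8879 genes lower and 6.93% higher. With passage as a block edgeR called 5 of 7 lower (NOTCH1, NOTCH2, ADAM10, RBPJ and MAML1), where 28.1% of genes were called lower and 25.0% higher. All 3 Silvestrol libraries lay under all 4 controls for 4 of 7 members, against 32.8% of genes. The median log2 ratio of the members was -0.74 in passage 3 and -0.28 in passage 4, where the medians of all genes were -0.17 and -0.15. Between the DMSO libraries of the 2 passages the counting intervals of 4 of 7 members (NOTCH2, ADAM10, JAG1 and RBPJ) excluded 0, and those of 57.7% of 10467 genes did. The libraries were labelled as biological replicates of different passages, and all p-values come from these 2 passages only. Without the block they rest on the spread between the passages. With the block they rest on how the Silvestrol change differed between passages, and mostly on a spread shared across genes.

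**Figure D3:**
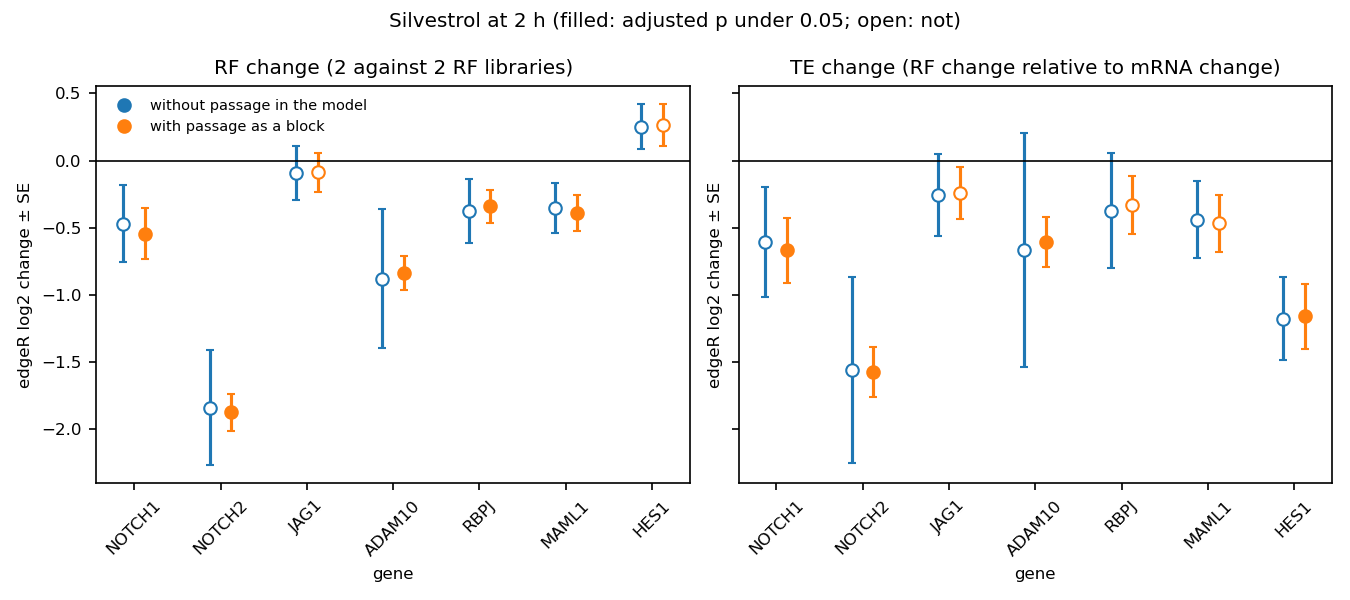
edgeR log2 changes ± SE of RF counts (left) and of TE (right) at 2 h with Silvestrol, without passage in the model (blue) and with passage as a block (orange). Filled points have an adjusted p under 0.05, which 5 members reached for RFs and 4 for TE, all of them with the block.

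TE was lower with Silvestrol for NOTCH2, which had fewer footprints on a similar mRNA level, and for HES1, which had similar footprints on a higher one. With passage as a block the edgeR TE change (the RF change relative to the mRNA change) was -1.58 for NOTCH2 (SE 0.19, adjusted p 8.8e-07) and -1.16 for HES1 (SE 0.24, adjusted p 0.00044). ADAM10 (-0.61, adjusted p 0.011) and NOTCH1 (-0.67, adjusted p 0.027) were also called by edgeR with the block, so 4 of 7 members were lower, where 23.4% of genes were lower and 23.8% higher. Without the block edgeR called 0 genes, members or others. The unblocked edgeR TE change was -1.56 for NOTCH2 (adjusted p 0.244) and -1.18 for HES1 (adjusted p 0.116). Of the 10509 genes, 2573 had an unadjusted p under 0.05, 1 member (HES1, 0.012) among them. DESeq2 called 540 genes lower (7.05% of 7656) and 399 higher (5.21%), none of them a member. The mRNA libraries had no replicate, so the TE test took their spread from the footprints.

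The z-score, the log2 change in TE of passage 3 expressed in SDs from the mean of all genes, put NOTCH2 alone among the members past -1.5. NOTCH2 stood at -1.73, and at -1.39 with the passage 4 footprints. Of all genes, 6.29% lay below -1.5 and 4.37% above 1.5. HES1 followed at -1.08 (-1.26 with passage 4) and NOTCH1 at -0.85 (-0.23). MAML1, ADAM10, RBPJ and JAG1 lay between -0.64 and -0.21, and MAML1, at -0.64, stood at -0.11 with passage 4 footprints. All 7 log2 TE changes, from -2.05 to -0.52, lay below the median of all genes (-0.28).

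At 1 h all 7 members already had fewer footprints with Silvestrol than with DMSO, in a comparison of 1 library with 1. The log2 ratios ran from -1.14 for NOTCH2 to -0.41 for JAG1, where the median of all genes was -0.19 and 67.1% of genes lay below 0. MAML1 (-0.83), HES1 (-0.73) and NOTCH1 (-0.67) followed NOTCH2. The counting intervals of all 7 lay below 0, as did those of 51.2% of genes. NOTCH2 alone was at least 2-fold lower, as were 7.99% of genes.

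The difference between the times was tested with an edgeR interaction of treatment and time, chosen after the data had been seen. The 1 h groups had 1 library each, so the spread came from the 2 h libraries and the 1 h libraries are assumed to vary alike. With time and passage as a block, the NOTCH2 change was less deep at 1 h than at 2 h by 0.92 on the log2 scale (SE 0.22, adjusted p 0.0029). This direction was called for 1.14% of genes. HES1 differed the other way, with its 1 h change lower than its 2 h change (-0.85, SE 0.26, adjusted p 0.053), which missed the threshold, and 0.894% of genes were called in that direction. For the other 5 members the adjusted edgeR p was between 0.25 and 0.99. Without the block no gene was called by edgeR.

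The wider pathway was described with a list of 75 genes, 65 of them not members, of which 49 passed the minimum. In the RF test without the block 6 of the 49 were lower (MIB1, MAML2, EP300, CREBBP, CTBP1 and TLE1) and 0 higher, against the background of 7.56% and 2.17%. With the block 22 were lower and 8 higher, against 28.1% and 25.0%. With either Silvestrol library left out, edgeR called 0 of them, and 0 of all genes. Of the 49, 6 had a z-score below -1.5 and 2 above 1.5. With passage 4 footprints 3 lay below (EP300, TLE1 and MAML2) and 3 above (LFNG, HES2 and NEURL1B). With passage 3 footprints their median z-score was -0.41, where that of all genes was 0.03.

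Of the 6 genes called lower, 5 were nuclear coactivators or corepressors, roles that held 19 of the 49 genes. The difference between roles was not tested. EP300, the histone acetyltransferase recruited by Mastermind, went from 13.6 to 2.07 RPKM in passage 3 and from 13.4 to 2.54 in passage 4 (edgeR log2 change -2.43, SE 0.16, adjusted p 0.018). TLE1, a Groucho-family corepressor used by HES proteins, went from 20.9 to 2.42 and from 17.9 to 3.51 RPKM (-2.42, SE 0.23, adjusted p 0.019). MAML2, a paralog of MAML1, went from 17.9 to 5.71 and from 18.2 to 6.99 RPKM (-1.39, SE 0.17, adjusted p 0.021). CREBBP, the close relative of EP300, changed by -0.92 (SE 0.17, adjusted p 0.037 by edgeR). CTBP1, a corepressor bound by RBPJ complexes, changed by -0.94 (SE 0.15, adjusted p 0.031 by edgeR). EP300 and CREBBP mRNA was higher with Silvestrol than with DMSO (17.4 against 9.16 RPKM, and 14.3 against 8.13). The z-scores were -3.32 for EP300, -2.81 for TLE1, -1.78 for MAML2, -1.77 for CREBBP and -0.56 for CTBP1. In the same role class KAT2A, another acetyltransferase, had the highest z-score (1.22), and HDAC1 (0.95) the highest among corepressors.

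On the signal-sending side, MIB1, the ubiquitin ligase that lets ligands be internalized, went from 28.9 to 10.2 and from 31.1 to 11.5 RPKM (edgeR log2 change -1.35, SE 0.14, adjusted p 0.019) with a z-score of -1.37. NEURL1B, a ligase of the other family with that function, had the highest z-score of its class (1.01). Among the proteases, APH1A, a subunit of γ-secretase, had the highest z-score (1.21). The Fringe glycosyltransferase LFNG had a z-score of 1.81 and POGLUT1, which adds glucose to Notch, one of 0.40, and these were the highest and lowest of the 4 glycosylation genes. Among genes of receptor turnover, AAK1, a kinase that acts on NUMB and endocytosis, stood lowest (-1.71) and DTX3L highest (0.93). Among target genes NRARP, a feedback inhibitor, stood at -2.22 but at -0.17 with passage 4 footprints, and HES2 stood at 2.26 and 2.60. Few footprint reads lay behind either gene. NRARP had 33 reads without and 3 with Silvestrol in passage 3, against 3 and 1 in passage 4. HES2 had 37 without and 44 with it, against 5 and 6. DLK2, a noncanonical ligand, had a z-score of 0.96 against -0.21 for JAG1.

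**Figure D4:**
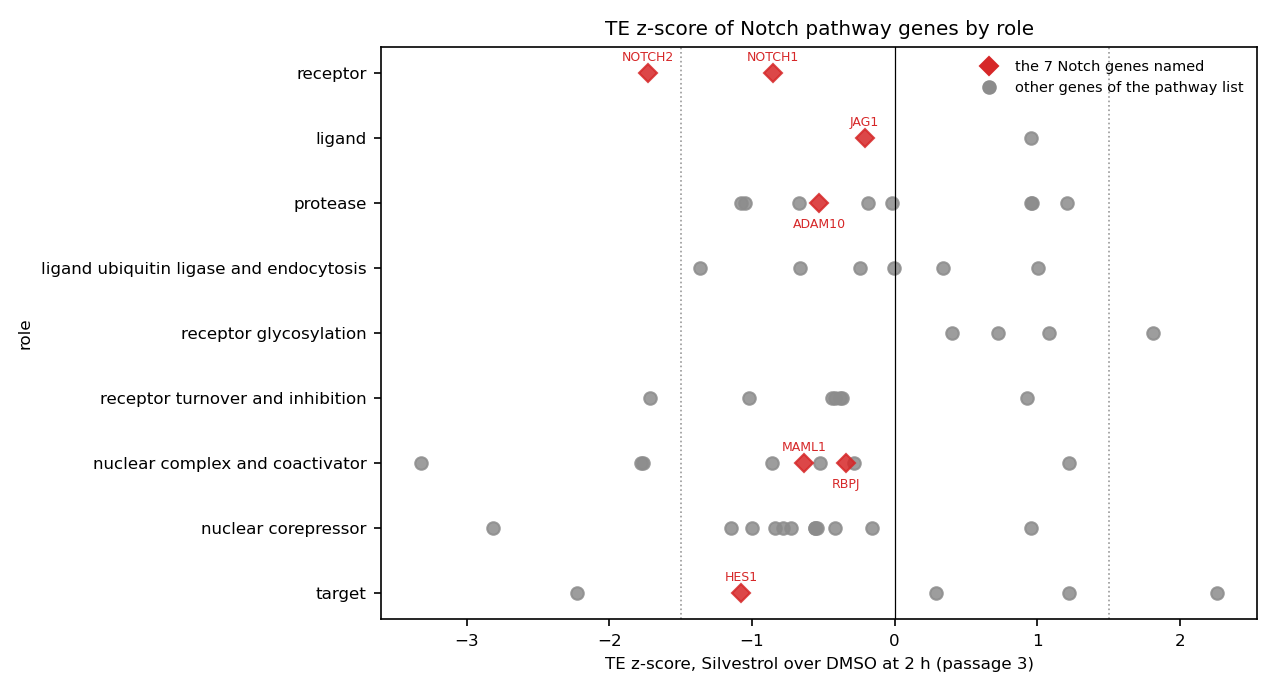
TE z-score (passage 3, Silvestrol over DMSO at 2 h) of the 56 expressed genes of the pathway list by role, with the 7 members as red diamonds and dotted lines at -1.5 and 1.5. EP300 (-3.32) and TLE1 (-2.81) lie lowest, NOTCH2 is the only member past -1.5, and LFNG and HES2 lie above 1.5.

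With INK128 the order of the members was different from that with Silvestrol, and HES1 was the one that stood apart. These are single libraries, so no test was possible and the depth is unknown, since FPKM values were deposited without counts. HES1 went from 38.1 to 18.8 RF FPKM, a log2 ratio of -1.02 at the 1.9 percentile of 7102 genes. It was the only member at least 2-fold lower, as were 1.96% of genes. The RF log2 ratios of the other 6 expressed members ran from -0.04 (NOTCH1, 4.92 to 4.78 FPKM) to 0.36 (JAG1, 24.0 to 30.8 FPKM), around a median of all genes of 0.01. NOTCH2, the member most reduced by Silvestrol, went from 28.4 to 33.4 FPKM (log2 ratio 0.23). JAG2 was under the minimum, with 1.02 and 0.73 FPKM.

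The median log2 ratio of total RNA FPKM over all genes was -1.17 with INK128, so RNA changes are given relative to that. Relative to it the 7 members lay between -0.24 (NOTCH1) and 0.26 (JAG1), and HES1 lay at -0.07. Without that centring 6 of the 7 were at least 2-fold lower, as were 73.8% of genes. Total RNA was near the minimum mean of 0.3 FPKM for MAML1 (0.55 with DMSO and 0.24 with INK128). It was 0.77 and 0.29 FPKM for NOTCH1, 0.91 and 0.39 for HES1, and highest for NOTCH2 (3.88 and 1.94). The z-score of the log2 change in RF over total RNA was -1.76 for HES1, the one member past -1.5, where 5.58% of genes lay below -1.5 and 1.75% above 1.5. It ran from -3.30 (standardised by median and MAD) to -1.56 (no minimum level) under the alternatives. The other 6 lay between 0.23 and 0.56, but with a pseudocount of 0.5 NOTCH1 (-0.099) and MAML1 (-0.32) lay below 0. The HES1 z-score with Silvestrol was -1.08, but the components differed, with 2.95-fold higher mRNA and similar footprints there, and lower footprints on RNA near the median here. The 2 experiments had separate controls, units and RNA preparations, and the difference between the drugs was not tested. Among the 33 other pathway genes above the minimum in the INK128 table, 0 lay past -1.5 or 1.5.

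**Figure D5:**
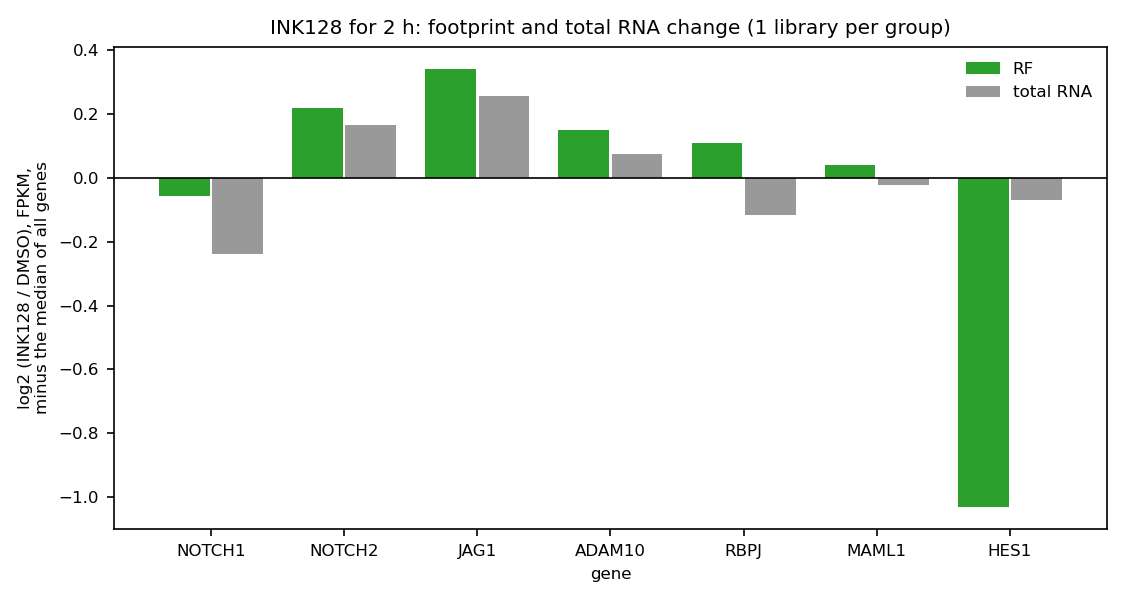
Log2 ratio of INK128 to DMSO at 2 h for RFs (green) and total RNA (grey), in FPKM, minus the median of all genes, for the 7 expressed members with 1 library per group. HES1 footprints stand apart at -1.03, and the other bars lie between -0.24 and 0.34.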

How the data were processed

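For Silvestrol, the authors discarded linker and rRNA sequence and aligned reads with Bowtie to hg19. They deposited read counts for each canonical transcript (unique alignments only) and RPKM that leaves out non-unique or shared positions. The submitters' processing notes name CASAVA 1.8.1. For INK128 the deposited values are the authors' FPKM, and the program that made it is not given in the sources used here. Columns of the authors' TE, log2 changes and scores were not used, and 0 columns of samples were left out.

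The 10 members and the pathway list were chosen with earlier results of these data known. Where a symbol had more entries, the one with the higher mean RF RPKM was kept, and 10509 genes (Silvestrol) and 7102 genes (INK128) passed the minimum. RF counts at 2 h were tested with edgeR 4.0.16 (R 4.3.3, TMM, quasi-likelihood, Benjamini-Hochberg over all genes, two-sided), and TE as an interaction over 6 libraries. Changes in counts are relative to TMM scaling. Passage numbers come from the labels, and the deviations of DMSO and Silvestrol libraries by passage correlated (r = 0.758 over 10509 genes), so passage was used as a block beside the main test. With the block the 4 RF libraries leave few degrees of freedom, and the spread is mostly shared across genes. Single libraries were compared as log2 ratios with no test. Their 95% intervals are exact binomial (Clopper-Pearson) intervals of the read split and cover counting error only. Alternatives included DESeq2 1.42.0, other scaling, filters, pseudocounts and left-out libraries. Tests were checked on simulated counts.

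All members were named. Of the other listed genes, those past the RF test and the lowest and highest z-score of each role were named, with the 3 genes nearest to NOTCH1. Of the genes this rule gives, 2 are not reported here. The 5′ UTRs came from the GENCODE annotation on GRCh37 (the build of hg19) and were folded with RNAfold 2.7.2. Protein sequences were not used here.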

Additional observations from a re-analysis of the deposited data

Results flagged for a closer look

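The NOTCH2 footprint change with Silvestrol passed a test of the difference between times in 1 of 2 models, a test chosen after the data had been seen. With time and passage in the edgeR model, the log2 RF change at 1 h minus that at 2 h was 0.917 (adjusted p 0.0029), and without passage it was 0.88 (adjusted p 1.00 by edgeR). The RF level went from 11.1 to 5.03 RPKM at 1 h, and from 8.76 to 1.86 and from 14.5 to 4.12 RPKM at 2 h. The 1 h comparison had 1 library per group, so the spread behind both models came from the 2 h libraries.

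The footprints of HES1 were lower with Silvestrol at 1 h and close to the DMSO level at 2 h. The log2 ratio was -0.733 at 1 h and 0.17 and 0.06 at 2 h in passages 3 and 4, and the 2 h counting intervals (0.00 to 0.34 and -0.32 to 0.44) reached 0. The edgeR test of the difference gave -0.84 (adjusted p 1.00) without passage and -0.85 (adjusted p 0.053) with it. mRNA was not measured at 1 h in the tables used here, and its part in the 1 h value was not tested.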

How the results depend on the processing

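The members called for RFs at 2 h numbered 0 in the main test, and 1 with DESeq2, with no minimum level, or with the untreated library added to DMSO (NOTCH2 each time). They numbered 5 with the replicate block, and 5 with the replicate block and the 1 h libraries. For TE they numbered 0, and 4 with the replicate block. Leaving out each of the 4 RF libraries at 2 h in turn gave 0 to 1 members for RFs and 0 to 1 for TE, the 1 being NOTCH2 without the DMSO library of passage 3. For RFs and TE at 2 h the block changed no other call of a member. The single mRNA libraries of the TE test were not left out. The 1 h against 2 h test called 0 members, and 1 with the replicate block. Past the z-score threshold with Silvestrol there was 1 member, and 0 with passage 4 footprints or a threshold of 2. At 1 h, 1 member was 2-fold lower, and 0 after centring on the median or against untreated cells (NOTCH2 at -0.96 and -0.999). For mRNA 1 member was past 2-fold, and 2 with no minimum level, NOTCH3 being added. With INK128 and a pseudocount of 0.5, members past 2-fold went from 1 to 0 for RFs (HES1 at -0.999). For total RNA they went from 6 to 0 with that pseudocount or after centring, where NOTCH2 (0.17), ADAM10 (0.076) and JAG1 (0.26) changed sign. With 1 library left out the JAG1 RF change ran from -0.251 to 0.045, above 0 without the DMSO library of passage 4 (0.045) or the Silvestrol library of passage 3 (0.037). HES1 RFs changed sign with the replicate block and the 1 h libraries (-0.051), and the NOTCH1 time difference with the replicate block (0.013). These values lay near 0.

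Over all genes, RF calls (795 lower and 228 higher) rose to 2955 and 2628 with the replicate block, 2771 and 2284 with the replicate block and the 1 h libraries, 1755 and 888 with the untreated library, and 1013 and 615 with DESeq2, and fell to 0 without either Silvestrol library. TE calls (0) became 540 and 399 with DESeq2, 186 and 22 with no minimum level, 2464 and 2496 with the replicate block, 567 and 307 without the DMSO library of passage 3, and 122 and 13 without that of passage 4. The other pathway genes called lower for RFs (6) numbered 11 with DESeq2 and 16 with the untreated library. Depth limits passage 4 most, where NOTCH1 had 53 reads and HES1 86 with Silvestrol.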

Other observations

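Between the 2 passages of DMSO-treated cells, with 1 library each and no test, 4 of the 7 expressed members differed beyond counting error, as did 57.7% of genes. ADAM10 footprints were 2.36-fold higher in passage 4 than in passage 3 (95% counting interval of the log2 ratio 1.12 to 1.35), and those of NOTCH2 1.65-fold (0.61 to 0.84). JAG1 (1.27-fold) and RBPJ (1.23-fold) had intervals above 0, and those of NOTCH1, HES1 and MAML1 included 0. Between untreated cells and DMSO at 2 h within passage 3, the log2 ratios of the 7 expressed members ran from -0.26 for HES1 to 0.29 for NOTCH1. That of HES1 was larger in size than its 2 h Silvestrol ratios (0.17 and 0.06), and that of NOTCH1 was larger in size than its passage 4 ratio (-0.28).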
